A study of Mus musculus with 12 samples.

Results

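Interferon stimulated genes are the genes that type I interferon switches on in nearly every cell type. A list of 42 of them was followed by gene symbol through a table of 46986 features measured in mouse hematopoietic stem cells (HSCs), the marrow cells from which all blood lineages descend. Each of the 42 symbols was found once. Expression is given in RPKM, read counts scaled by transcript length and by mapped reads. Of the 42 genes, 37 reached 1 RPKM in at least 1 library, and all 37 reached it in at least 3 libraries and were tested among 8553 genes. The other 5 stayed below 1 RPKM in every library and count as not measured. They are Oas2, Mx1, Mx2, Ifit3b and Parp12, with highest values of 0.939, 0.216, 0.178, 0.701 and 0.62 RPKM.

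The mice were C57BL/6 and 12 weeks old, and their marrow HSCs gave 4 groups of 3 libraries, each library from the RNA of 2000 sorted cells. Ctrl mice received neither agent. ABX mice had drinking water with 4 antibiotics (ampicillin, vancomycin, neomycin and metronidazole), which deplete gut bacteria, over a period of 4 to 6 weeks. Ctrl 5-FU and ABX 5-FU mice, without and with those antibiotics, were sampled on day 12 after an intravenous dose of 200 mg/kg 5-fluorouracil (5-FU), an antimetabolite that kills dividing marrow cells and is followed by regeneration from HSCs. The design gives these comparisons: ABX against Ctrl, 5-FU against none without ABX, 5-FU against none with ABX, and ABX against Ctrl after 5-FU. The interaction asks whether the change after 5-FU differs with ABX. Whether replicate libraries stem from different animals is not in the labels, and the p-values therefore reflect a spread between libraries that may be technical. In RNA from sorted pools, fewer cells of a type and less RNA per cell cannot be told apart.

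Type I interferons bind the receptor IFNAR1/IFNAR2, whose kinases JAK1 and TYK2 act on STAT2. Together with IRF9 it is part of ISGF3, which binds the interferon-stimulated response element, a pair of GAAA repeats spaced by a few bases. Its targets hold back viruses by sensing or degrading RNA, blocking translation, or modifying proteins with the ubiquitin-like ISG15. In HSCs, acute interferon drives cells into cycle, and low tonic signalling has been linked to microbial products.

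RefSeq promoters (GRCm38.p6, 250 bases before to 50 after each start) were at hand for 31 of the 42 genes. The core of that element, searched on both strands as GAAA, any 2 bases and GAAA (overlapping matches counted), was in the promoter of 14 of these 31 genes (45.2%), against 3.99% of all 27025 genes in the promoter table. Its 23 matches began between 222 bases before and 32 bases after the start, with a median of 75 bases before it, and 17 lay upstream. The stretches below are from some of these 14 genes. Those of Ifih1, Ddx58, Oas1a, Trim30a, Ifitm3 and Eif2ak2 also hold the element and are not shown. Capitals mark the match, and TTTC, any 2 bases and TTTC is the same motif on the other strand.
Isg15, chr4:156200860-156200911, minus strand: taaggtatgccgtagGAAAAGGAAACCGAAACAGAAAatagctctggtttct
Oas3, chr5:120777710-120777749, minus strand: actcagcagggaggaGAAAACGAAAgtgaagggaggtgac
Bst2, chr8:71537572-71537617, minus strand: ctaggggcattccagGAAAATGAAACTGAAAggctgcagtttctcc
Stat2, chr10:128270261-128270300, plus strand: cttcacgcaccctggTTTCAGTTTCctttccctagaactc
Rsad2, chr12:26456548-26456587, minus strand: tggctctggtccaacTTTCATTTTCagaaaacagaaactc
Ifit1, chr19:34640770-34640828, plus strand: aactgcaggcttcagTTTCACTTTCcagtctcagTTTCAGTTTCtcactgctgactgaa
Ifit3, chr19:34583358-34583431, plus strand: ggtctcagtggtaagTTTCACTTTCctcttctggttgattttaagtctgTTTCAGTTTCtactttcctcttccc
Ifit3b, chr19:34607754-34607827, plus strand: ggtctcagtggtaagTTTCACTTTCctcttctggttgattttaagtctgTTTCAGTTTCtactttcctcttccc
In Isg15 and Bst2 the repeats follow one another so that overlapping matches merge. The stretches of Ifit3 and Ifit3b are identical. A match describes these letters and is no measured binding site. Irf7, Irf9, Oasl1, Oasl2, Samd9l, Isg20, Xaf1, Trim25, Dtx3l and Ifi44 had no match in this window.

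Read depth, inferred from the spacing of low RPKM values, was 27.4 to 54.0 M reads per library. Of 14 genes listed for HSCs, 12 reached 1 RPKM or more in at least 1 library. They include Cd34 (9.17 to 24.5 RPKM) and Flt3 (0.478 to 1.34 RPKM), which progenitors also carry. Ptprc (1.59 to 3.36 RPKM), found on most blood cells, is counted too. The count is thus no measure of HSC identity. Mecom stayed below 1 RPKM throughout, as did Cd48, a surface marker by whose absence HSCs are told from progenitors. None of 8 plasmacytoid dendritic cell markers reached 1 RPKM, and their summed level was 0.239 to 0.963 RPKM over all libraries. Cd3d, Cd3e, Cd3g, Ncr1, Gzmb, Cd79a, Ms4a1, Pax5, Ly6g, Adgre1 and Csf1r also stayed below 1 RPKM, but other genes of the B cell, T and NK cell and macrophage lists did not: Cd79b was at 8.56 to 14.97 RPKM, Nkg7 at 23.4 to 49.5 RPKM, Cd68 at 4.37 to 20.1 RPKM, Klrb1c at up to 6.41 RPKM and C1qc at up to 9.61 RPKM. Within Ctrl 5-FU, replicate 1 correlated across genes at 0.971 and 0.972 with its group, against 0.989 between the other libraries, and replicate 3 had the most neutrophil and monocyte marker RNA (267 RPKM summed). Comparisons that share libraries are not independent: ABX against Ctrl, 5-FU with ABX and the interaction all use the 3 ABX libraries.

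By their median level, the interferon stimulated genes lay near all tested genes. Ifitm3, which blocks virus entry at membranes, stood far above the rest with 506 RPKM as its mean over the 12 libraries. Another 7 averaged 10 to 100 RPKM, 9 averaged 5 to 10 RPKM and 20 averaged under 5 RPKM. The median of the 37 means was 3.85 RPKM, against 3.53 RPKM over all tested genes. None of the 10 interferon genes examined passed the filter. Of these, 9 were listed at the floor of the table in every library, and Ifnb1, which encodes interferon beta, was above it in 3 libraries with at most 0.123 RPKM.

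**Figure D1:**
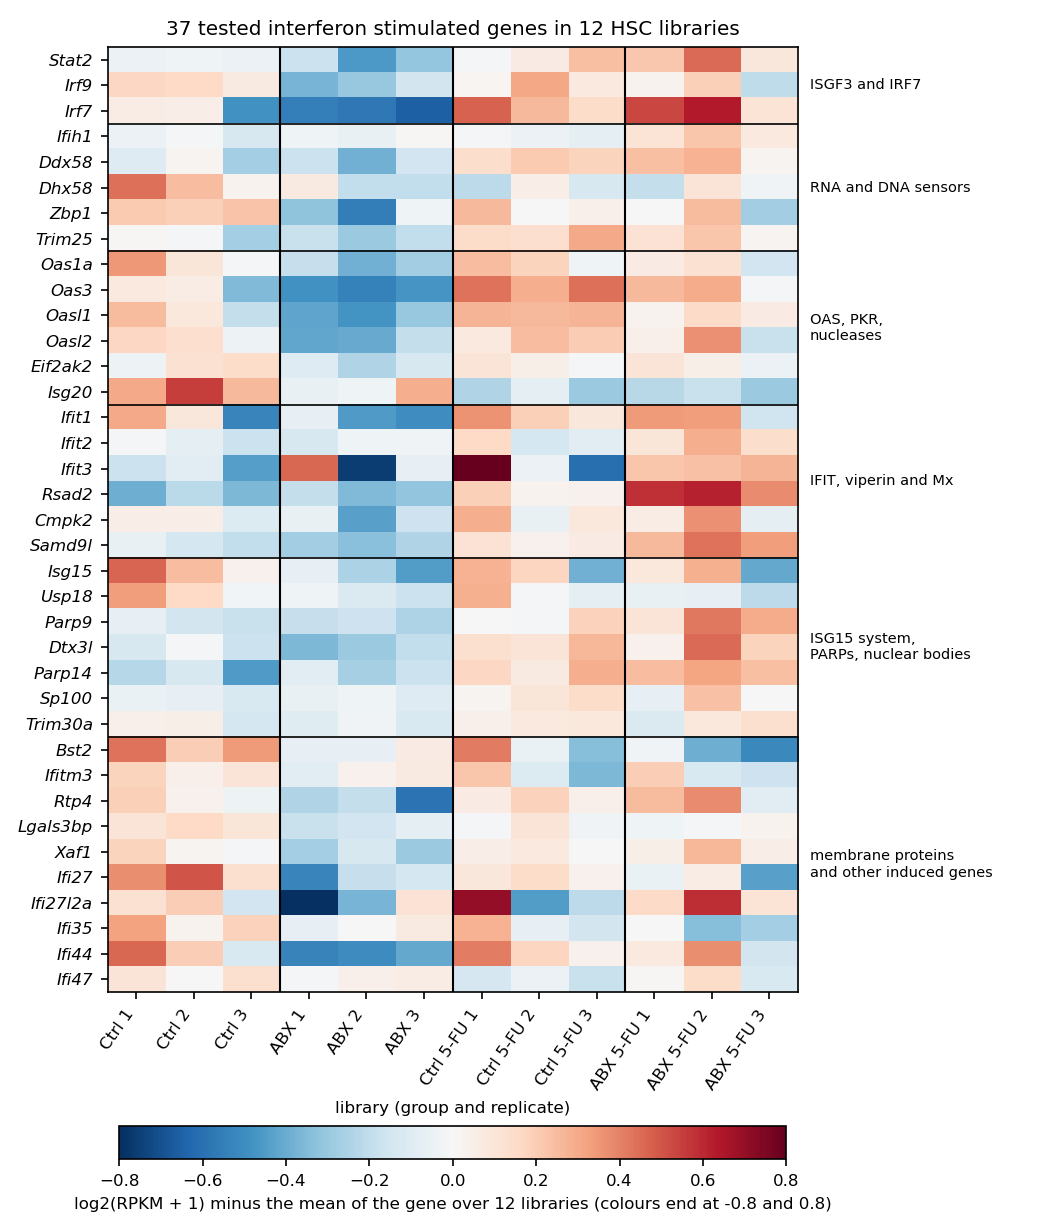
Level of the 37 tested genes in each of the 12 libraries, as log2(RPKM + 1) minus the mean of that gene over all libraries, with genes ordered by role and colours ending at -0.8 and 0.8. The ABX columns are mostly blue: the ABX group had the lowest group mean for 25 of 37 genes and the highest for none.

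The ABX group without 5-FU held the low end of the list. It had the lowest of the 4 group means for 25 of the 37 genes (67.6%), against 23.5% of all tested genes, and the highest for 0 of 37, against 30.1% of all tested genes. The highest mean was in Ctrl for 13 genes, in Ctrl 5-FU for 10 and in ABX 5-FU for 14, against 22.1%, 20.6% and 27.2% of all tested genes. Averaged over the 37 genes, log2(RPKM + 1) was 2.47, 2.40 and 2.48 in the ABX libraries. It was 2.78, 2.74 and 2.58 in Ctrl, 2.85, 2.73 and 2.67 in Ctrl 5-FU, and 2.77, 2.88 and 2.63 in ABX 5-FU. The ABX libraries were thus the lowest 3 of the 12, and the other 3 groups overlapped. The same average over all tested genes stayed between 2.53 and 2.61.

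**Figure D2:**
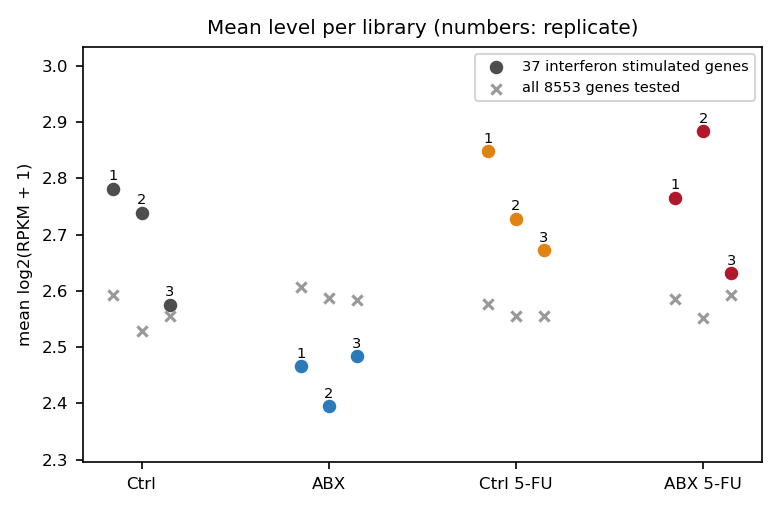
Mean log2(RPKM + 1) per library over the 37 interferon stimulated genes (circles, numbered by replicate) and over all 8553 tested genes (crosses). The 3 ABX circles, 2.40 to 2.48, lie below all 9 others, whereas the crosses stay between 2.53 and 2.61.

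Without 5-FU, the groups ABX and Ctrl differ by their labels in the antibiotics. No gene of the list was called by limma at an adjusted p of 0.05, where 0.0702% of all tested genes were called, and the smallest adjusted p was 0.0969. At an unadjusted p under 0.05 there were 19 of 37 genes, against 17.8% of all tested genes. The log2 change was below 0 for 31 of 37 genes, against 45.3% of all tested genes, with a median of -0.26 against 0.020. For 19 of 37 genes (51.4%) all 3 ABX libraries lay below all 3 Ctrl libraries, an order seen in 9.06% of all tested genes. The opposite order was found for 0 of 37 genes and 13.0% of all tested genes. Estimated depth also separated these groups, with 28.8 to 37.2 M reads in ABX and 43.7 to 54.0 M in Ctrl, and its part in the result was not tested.

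**Figure D3:**
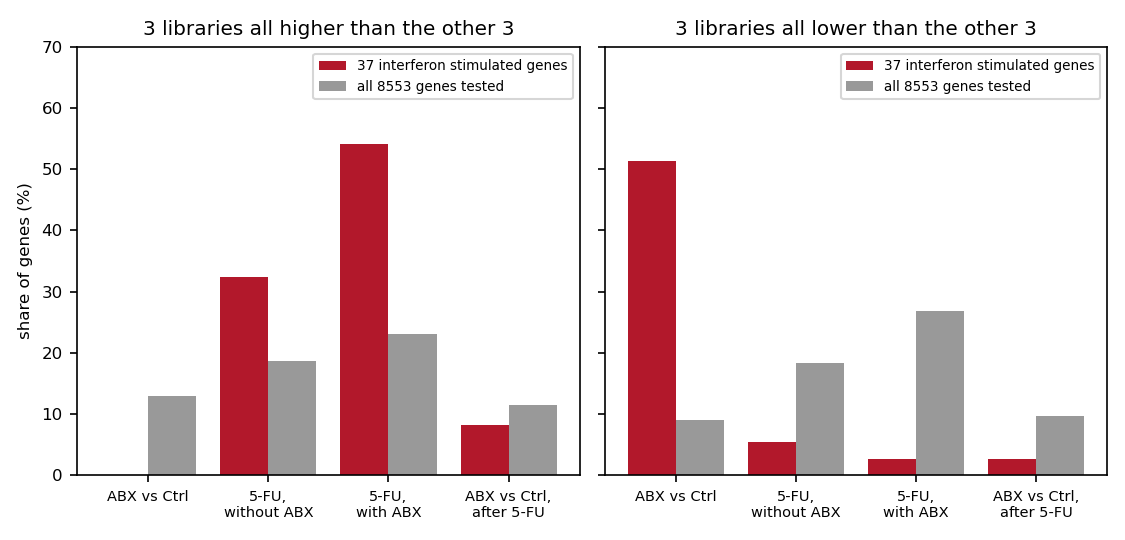
Share of genes whose 3 libraries in the first-named group lie all above (left) or all below (right) the 3 of the other group, for the 37 interferon stimulated genes (red) and all 8553 tested genes (grey). The largest red bars are ABX below Ctrl, 51.4% against 9.06%, and 5-FU above none with ABX, 54.1% against 23.1%.

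By role, the order was found most often among the transcription factors and in the group of the OAS family, Eif2ak2 and Isg20. All 3 measured transcription factors, Stat2, Irf9 and Irf7, had every ABX library below every Ctrl library. So did 5 of 6 tested genes of the group of the OAS family, Eif2ak2 and Isg20, with Isg20 as the exception. The order was also found in 1 of 5 genes of the group of nucleic acid sensors and Trim25. It held for 1 of 6 genes of the IFIT, viperin and Mx group, 3 of 7 of the ISG15 and PARP group, and 6 of 10 membrane and other proteins. The genes of that order were Stat2, Irf9, Irf7, Zbp1, Oas1a, Oas3, Oasl1, Oasl2, Eif2ak2, Samd9l, Isg15, Usp18, Dtx3l, Bst2, Rtp4, Lgals3bp, Xaf1, Ifi27 and Ifi44.

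Oasl1, an OAS-like protein that lacks synthetase activity and restrains Irf7 translation (chromosome 5, 114923240 to 114937915), had the smallest p of the list in this comparison. Its level was 1.46, 1.197 and 0.811 RPKM in Ctrl and 0.546, 0.485 and 0.677 RPKM in ABX. The ABX mean was 0.492 of the Ctrl mean, with a log2 change of -0.45 ± 0.10 (SE) and an adjusted p of 0.0969. Ifi44, a cytoplasmic antiviral protein (chromosome 3, 151730922 to 151749960), was at 5.48, 4.40 and 3.33 RPKM in Ctrl and at 2.27, 2.33 and 2.55 RPKM in ABX. Its log2 change of -0.66 ± 0.16 was the most negative of the list, with an adjusted p of 0.11. Ctrl replicate 3 was the lowest Ctrl library for both genes and still lay above all ABX libraries.

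Ifi27, a small membrane protein (chromosome 12, 103434211 to 103440239), was at 10.8, 12.0 and 9.003 RPKM in Ctrl and 5.35, 7.05 and 7.29 RPKM in ABX. Its log2 change was -0.62 ± 0.14 with an adjusted p of 0.101. Lgals3bp, a secreted glycoprotein that binds galectins (chromosome 11, 118392751 to 118402092), was tighter, with 60.0, 62.7 and 60.0 RPKM in Ctrl and 49.2, 50.2 and 52.8 RPKM in ABX. Its log2 change was -0.26 ± 0.06 with an adjusted p of 0.11. After 5-FU, Ifi27 was at 8.76, 9.14 and 8.38 RPKM without ABX and 7.81, 8.54 and 5.77 RPKM with ABX. Lgals3bp was then at 55.6, 60.1 and 54.7 RPKM without ABX and 54.7, 55.4 and 57.1 RPKM with ABX. Without 5-FU both genes had clear gaps between the groups, yet neither passed the threshold over all genes.

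The ISG15 system itself showed the same order without a call. Isg15, the modifier (chromosome 4, 156199424 to 156200818), was at 15.4, 13.1 and 11.2 RPKM in Ctrl and 10.4, 8.97 and 7.74 RPKM in ABX. Its log2 change was -0.50 ± 0.21 with an adjusted p of 0.239. Usp18, the protease that removes ISG15 and damps receptor signalling (chromosome 6, 121245906 to 121270917), was at 1.46, 1.18 and 0.926 RPKM in Ctrl and 0.907, 0.802 and 0.734 RPKM in ABX. Its log2 change was -0.26 ± 0.11 with an adjusted p of 0.253. After 5-FU the libraries of both genes overlapped between the ABX and Ctrl groups. Isg15 was then at 13.4, 12.4 and 8.13 RPKM without ABX and 11.6, 13.5 and 7.97 RPKM with ABX. Usp18 was at 1.37, 0.932 and 0.85 RPKM without ABX and 0.873, 0.863 and 0.691 RPKM with ABX.

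On day 12 after 5-FU, the share of the list called higher exceeded that of all tested genes with ABX and was near it without. Rsad2, Oas3, Parp14 and Trim25 rose with and without ABX, Irf7, Stat2, Samd9l and 8 others rose with ABX, and Isg20 fell without ABX. With ABX, limma called 15 of 37 genes higher (40.5%) and 0 lower, where 30.2% of all tested genes were called, 13.7% higher and 16.5% lower. Without ABX it called 4 higher (10.8%) and 1 lower, together 13.5%, where 21.6% of all tested genes were called, 9.74% higher and 11.8% lower. The median log2 change was 0.34 with ABX and 0.035 without, against -0.014 and 0.0045 over all tested genes. Groups did not overlap, with 5-FU higher, for 20 of 37 genes with ABX (54.1%, all tested genes 23.1%) and for 12 of 37 without (32.4%, all tested genes 18.6%). The opposite order held for 1 of 37 genes with ABX and 2 of 37 without, against 26.8% and 18.3% of all tested genes. The i7 indexes of the 5-FU libraries were not used in the libraries without 5-FU, and the index and 5-FU cannot be told apart.

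The size of the 5-FU calls depended on scaling, because summed RPKM was lower after 5-FU. When every library was rescaled to one total, the median of all tested genes moved from 0.0045 to 0.14 without ABX and from -0.014 to 0.12 with ABX. The medians of the list became 0.19 and 0.47, and the genes called higher rose in number to 11 without ABX and 23 with ABX, against 22.1% and 25.1% of all genes. Relative to the median of all genes, the list therefore lay higher with ABX under both scalings. Leaving out ABX 5-FU replicate 2, the library with the highest value of all 12 for 16 of the 37 genes, gave 11 genes higher with ABX and a median of 0.24.

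**Figure D4:**
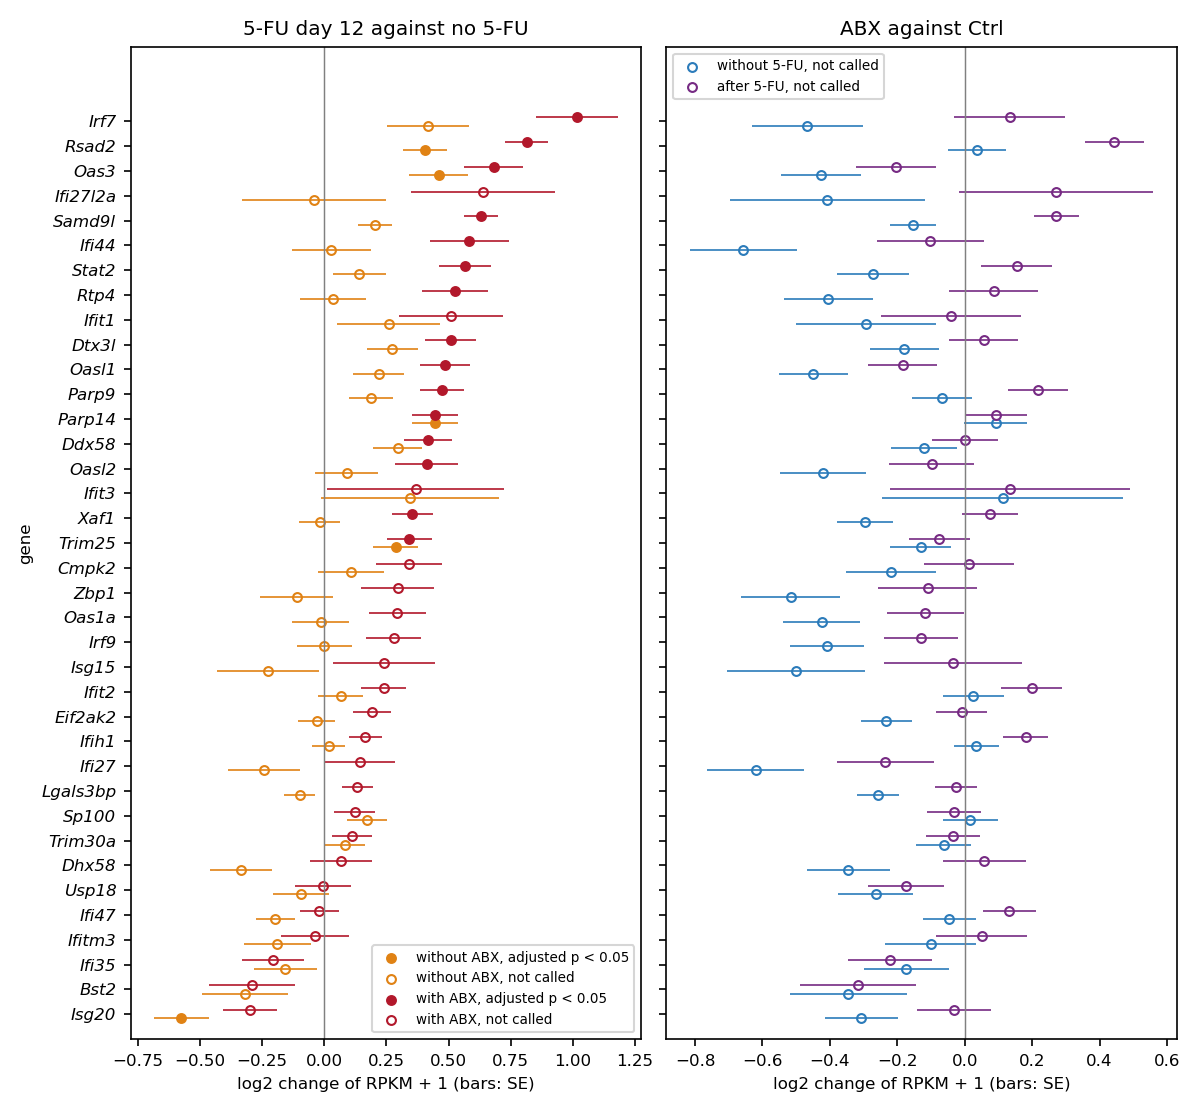
Fitted log2 change of RPKM + 1 with its SE for each of the 37 genes, for 5-FU against none (left, with and without ABX) and for ABX against Ctrl (right, with and without 5-FU). Filled points passed an adjusted p of 0.05: 15 with ABX and 5 without on the left, and none on the right.

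Of the 3 factors that carry the response, Irf7 and Stat2 rose after 5-FU with ABX. Irf7, the factor that amplifies interferon production (chromosome 7, 141262706 to 141266481), was at 10.1, 9.88 and 9.30 RPKM in ABX and 22.4, 24.1 and 16.4 RPKM in ABX 5-FU, a 2.15-fold ratio of the means. Its log2 change was 1.02 ± 0.16 with an adjusted p of 0.0014, the largest of the list. Without ABX it was at 15.8, 15.8 and 10.5 RPKM and then 21.5, 18.3 and 16.9 RPKM, and the log2 change of 0.42 ± 0.16 did not pass (adjusted p of 0.0919). The ABX libraries were the lowest 3 of 12 for this gene, and all 6 5-FU libraries lay above all 6 others.

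Stat2, a subunit of ISGF3 (chromosome 10, 128270576 to 128292849), was at 1.997, 1.46 and 1.73 RPKM in ABX and 2.92, 3.63 and 2.60 RPKM in ABX 5-FU. It rose by 0.57 ± 0.11 with an adjusted p of 0.00283. In Ctrl it was at 2.27, 2.30 and 2.28 RPKM and in Ctrl 5-FU at 2.36, 2.54 and 2.99 RPKM. The log2 change there was 0.14 ± 0.11, with an adjusted p of 0.36. Irf9, the DNA-binding subunit (chromosome 14, 55603571 to 55610030), was at 20.5, 21.6 and 24.1 RPKM in ABX and 27.4, 30.8 and 23.2 RPKM in ABX 5-FU. Its groups overlapped, and its log2 change of 0.28 ± 0.11 had an adjusted p of 0.0767. In Ctrl it was at 30.3, 30.2 and 28.3 RPKM and in Ctrl 5-FU at 27.2, 33.6 and 28.4 RPKM, with a log2 change of 0.00.

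**Figure D5:**
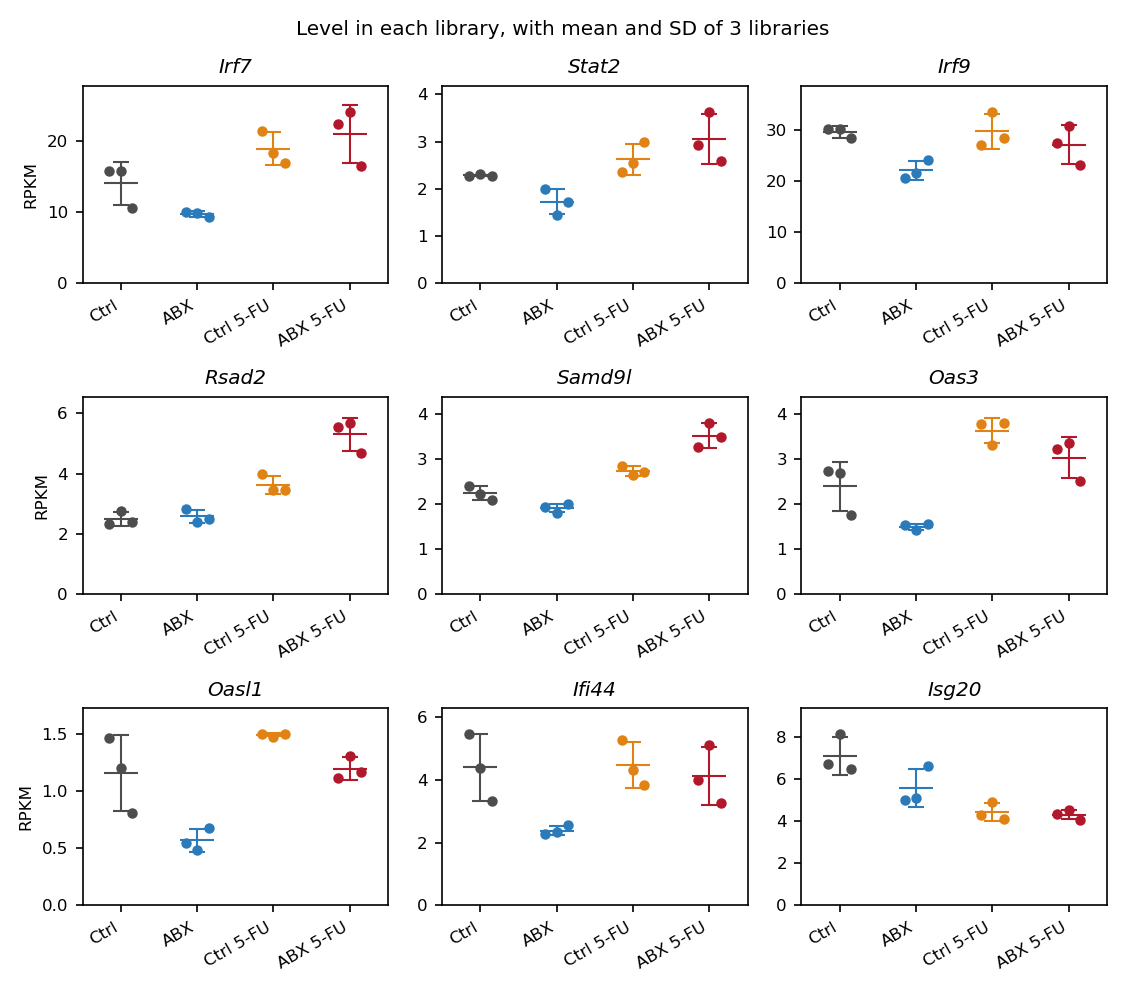
Level in RPKM of 9 of the genes in each library (points), with the mean and SD of 3 libraries per group. Rsad2 and Samd9l are highest in ABX 5-FU, Irf7 and Oas3 are lowest in ABX, and Isg20 is lower in the 5-FU groups.

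Among the effectors, Rsad2 had the smallest p. It encodes viperin, an enzyme that makes a chain-terminating nucleotide (chromosome 12, 26442753 to 26456452). Its level was 2.33, 2.75 and 2.40 RPKM in Ctrl, 2.83, 2.42 and 2.505 RPKM in ABX, 3.98, 3.44 and 3.46 RPKM in Ctrl 5-FU, and 5.55, 5.69 and 4.67 RPKM in ABX 5-FU. It rose without ABX by 0.41 ± 0.09 (adjusted p of 0.0092) and with ABX by 0.81 ± 0.09 (adjusted p of 0.00017), a 2.05-fold ratio of the means. Between ABX and Ctrl its libraries overlapped, with a log2 change of 0.04 and an adjusted p of 0.86.

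Samd9l, which restrains cell growth and translation (chromosome 6, 3372257 to 3399572), was at 2.41, 2.23 and 2.11 RPKM in Ctrl and 1.93, 1.82 and 2.01 RPKM in ABX. After 5-FU it was at 2.85, 2.65 and 2.72 RPKM without ABX and 3.27, 3.81 and 3.49 RPKM with ABX. It rose with ABX by 0.63 ± 0.07 (adjusted p of 0.000179), and the 0.20 ± 0.07 without ABX missed the threshold (adjusted p of 0.0515). The 4 groups did not overlap in the order ABX, Ctrl, Ctrl 5-FU and ABX 5-FU.

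The OAS family makes or relates to the second messenger that activates RNase L. Oas3 (chromosome 5, 120753098 to 120777661) was at 2.73, 2.68 and 1.76 RPKM in Ctrl, 1.53, 1.42 and 1.55 RPKM in ABX, 3.76, 3.31 and 3.80 RPKM in Ctrl 5-FU and 3.22, 3.34 and 2.51 RPKM in ABX 5-FU. It rose with ABX by 0.68 ± 0.12 (adjusted p of 0.00205) and without ABX by 0.46 ± 0.12 (adjusted p of 0.0198). The call without ABX was lost without Ctrl replicate 3 (adjusted p of 0.0624), without Ctrl 5-FU replicate 3 (0.0678), with no filter (0.0664) and with only the groups compared (0.0631). Oasl1 rose with ABX by 0.49 ± 0.10 to 1.11, 1.30 and 1.17 RPKM (adjusted p of 0.00541), while Ctrl 5-FU libraries stood between 1.48 and 1.5003 RPKM (log2 change of 0.22 without ABX, adjusted p of 0.145). Oasl2 (chromosome 5, 114896936 to 114912234) went from 6.99, 7.04 and 8.34 RPKM in ABX to 9.93, 12.7 and 8.41 RPKM in ABX 5-FU, a rise of 0.41 ± 0.13 (adjusted p of 0.0305). In Ctrl it was at 10.9, 10.7 and 9.34 RPKM and in Ctrl 5-FU at 10.2, 11.6 and 11.2 RPKM, which overlap. Without ABX 5-FU replicate 2 the change of Oasl2 with ABX was 0.27 and its adjusted p 0.113. That call held in 12 of 18 alternative fits, and was also lost without ABX replicate 1 (0.0873), ABX replicate 2 (0.0999) or ABX 5-FU replicate 1 (0.0585), with no filter (0.0904) and with only the groups compared (0.0664).

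Isg20, an RNA exonuclease (chromosome 7, 78913424 to 78920396), was the only one of the 37 genes called lower after 5-FU in the fit with all libraries. Its level was 6.70, 8.14 and 6.48 RPKM in Ctrl and 4.29, 4.92 and 4.09 RPKM in Ctrl 5-FU. It fell by 0.57 on the log2 scale (SE 0.11, adjusted p of 0.00543), a call kept in all 18 alternative fits. With ABX it was at 5.00, 5.09 and 6.62 RPKM and then 4.34, 4.52 and 4.07 RPKM. Those groups did not overlap, but the log2 change of -0.30 ± 0.11 had an adjusted p of 0.0591.

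In the group of the RNA and DNA sensors and Trim25, 2 of 5 genes rose with ABX, against 13.7% of all tested genes. Without ABX 1 of 5 rose, which was Trim25 and no sensor, against 9.74% of all tested genes. Ddx58, which encodes the RNA helicase RIG-I (chromosome 4, 40203773 to 40239828), was at 2.72, 2.21 and 2.77 RPKM in ABX and 3.95, 4.07 and 3.25 RPKM in ABX 5-FU, a rise of 0.42 ± 0.10 (adjusted p of 0.00917). In Ctrl it was at 2.91, 3.26 and 2.47 RPKM and in Ctrl 5-FU at 3.63, 3.85 and 3.75 RPKM, with a log2 change of 0.30 ± 0.10 and an adjusted p of 0.0516. Trim25, the ubiquitin ligase that acts on RIG-I (chromosome 11, 88999376 to 89020293), rose in both backgrounds. It was at 5.14, 5.04 and 4.04 RPKM in Ctrl, 4.38, 3.97 and 4.33 RPKM in ABX, 5.76, 5.70 and 6.51 RPKM in Ctrl 5-FU and 5.62, 6.10 and 5.18 RPKM in ABX 5-FU. The rise was 0.34 ± 0.09 with ABX (adjusted p of 0.016) and 0.29 ± 0.09 without (adjusted p of 0.0437). The call without ABX held in 5 of 18 alternative fits, and that with ABX was lost without ABX replicate 2 (adjusted p of 0.0648) and without ABX 5-FU replicate 2 (0.0691).

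A cluster of 3 neighbours on chromosome 16 rose with ABX, and Parp14 alone of them was called without ABX. Parp14 (35832874 to 35871544), Dtx3l (35926511 to 35939151) and Parp9 (35938470 to 35972605) encode ADP-ribosyltransferases and the ubiquitin ligase that partners with PARP9. Parp14 was at 1.39, 1.56 and 1.04 RPKM in Ctrl, 1.62, 1.33 and 1.47 RPKM in ABX, 2.13, 1.94 and 2.42 RPKM in Ctrl 5-FU and 2.32, 2.48 and 2.31 RPKM in ABX 5-FU. It rose by 0.45 ± 0.09 both with ABX (adjusted p of 0.00518) and without (adjusted p of 0.00825). Dtx3l went from 10.5, 10.98 and 11.8 RPKM in ABX to 14.1, 19.2 and 15.7 RPKM in ABX 5-FU, a rise of 0.51 ± 0.10 (adjusted p of 0.00443). Parp9 went from 2.46, 2.51 and 2.32 RPKM to 3.23, 4.28 and 3.85 RPKM, a rise of 0.47 ± 0.09 (adjusted p of 0.00286). Without ABX, Dtx3l was at 12.5, 13.5 and 12.1 RPKM and then 15.1, 14.8 and 16.7 RPKM, with groups that did not overlap and an adjusted p of 0.0788. Parp9 was at 2.76, 2.56 and 2.48 RPKM and then 2.95, 2.89 and 3.48 RPKM, with the same order and an adjusted p of 0.147. Dtx3l and Parp9 overlap in position, and since the strand setting is not given in the sources used here, reads in the overlap may have been counted for either gene.

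Rtp4, Xaf1 and Ifi44 of the membrane and mixed group also rose with ABX. Rtp4, a chaperone of receptor transport (chromosome 16, 23609919 to 23614222), was at 13.8, 14.3 and 10.6 RPKM in ABX and 19.9, 21.7 and 15.5 RPKM in ABX 5-FU, a rise of 0.52 ± 0.13 (adjusted p of 0.0123, or 0.0548 without ABX 5-FU replicate 2). Xaf1, a pro-apoptotic antagonist of XIAP (chromosome 11, 72301629 to 72313733), was at 2.01, 2.32 and 1.95 RPKM in ABX and 2.75, 3.36 and 2.77 RPKM in ABX 5-FU, a rise of 0.35 ± 0.08 (adjusted p of 0.00897). Ifi44 rose from the ABX values given above to 4.00, 5.11 and 3.27 RPKM, by 0.58 ± 0.16 (adjusted p of 0.0179). Without ABX replicate 1, ABX replicate 2 or ABX 5-FU replicate 2 its adjusted p was 0.0512, 0.0564 and 0.0765, and with no filter it was 0.0691. In Ctrl and Ctrl 5-FU these 3 genes had overlapping values, and none was called there. Rtp4 was at 19.0, 16.9 and 16.01 RPKM and then 17.3, 18.8 and 17.02 RPKM, and Xaf1 at 3.11, 2.68 and 2.61 RPKM and then 2.77, 2.83 and 2.64 RPKM. Ifi44 in Ctrl 5-FU was at 5.27, 4.31 and 3.83 RPKM.

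The most abundant gene took no part in these calls. Ifitm3 (chromosome 7, 141009586 to 141010770) was at 570, 518 and 540 RPKM in Ctrl, 474, 515 and 528 RPKM in ABX, 588, 466 and 391 RPKM in Ctrl 5-FU and 577, 462 and 448 RPKM in ABX 5-FU. Its adjusted p lay between 0.335 and 0.894 over the 5 comparisons. Of the 7 genes that averaged 10 to 100 RPKM, Irf7, Rtp4 and Dtx3l were called with ABX, and Lgals3bp, Irf9, Bst2 and Isg15 were not, while 10 of the 15 genes called with ABX had a mean below 5 RPKM.

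For 13 of 37 genes (35.1%) all 3 ABX libraries lay below both all Ctrl and all ABX 5-FU libraries, an order seen in 3.47% of all tested genes. These were Stat2, Irf7, Oas1a, Oas3, Oasl1, Oasl2, Eif2ak2, Samd9l, Dtx3l, Rtp4, Lgals3bp, Xaf1 and Ifi44. The interaction was above 0 for 35 of 37 genes, against 46.5% of all tested genes, with a median of 0.25 against -0.016. No gene of the list passed limma's threshold for it, where 0.0117% of all tested genes were called, and 10 had an unadjusted p under 0.05, against 8.3% of all tested genes. That number was 6 without Ctrl replicate 1 or Ctrl replicate 2, 5 without ABX 5-FU replicate 2 and 15 without ABX 5-FU replicate 3. Samd9l had the smallest p, with an interaction of 0.42 ± 0.10, an unadjusted p of 0.000958 and an adjusted p of 0.50. Rsad2 and Xaf1 followed with 0.41 ± 0.12 and 0.37 ± 0.12, both with an adjusted p of 0.505, and Stat2 with 0.43 ± 0.15 (adjusted p of 0.554). A change past the threshold with ABX and not without it is therefore not shown to differ between the backgrounds for any single gene.

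After 5-FU, ABX against Ctrl gave no call in the list. None of the 37 genes was called by limma, where 0.117% of all tested genes were called, 5 had an unadjusted p under 0.05 (all tested genes 14.9%), and the median log2 change was -0.0089 against 0.014. Without Ctrl 5-FU replicate 2 or ABX 5-FU replicate 2, 3 genes had an unadjusted p under 0.05. Rsad2 came closest, with 0.44 ± 0.09 and an adjusted p of 0.0742, and its 3 ABX 5-FU libraries lay above the 3 Ctrl 5-FU libraries. Samd9l (0.27 ± 0.07, adjusted p of 0.108) and Ifih1, which encodes the RNA sensor MDA5, had the same order. Ifih1 was at 1.06, 1.004 and 0.96 RPKM in Ctrl 5-FU and 1.23, 1.41 and 1.19 RPKM in ABX 5-FU (0.18 ± 0.07, adjusted p of 0.231). Those 3 of 37 genes stand against 11.5% of all tested genes. Oasl1 was the single gene with the opposite order, against 9.67% of all tested genes. Parp9 had a log2 change of 0.22 with overlapping groups and an adjusted p of 0.283.

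Replicates differed along the list as a whole. Ctrl replicate 3 was the lowest Ctrl library for 29 of 37 genes, against 31.2% of all tested genes. ABX 5-FU replicate 2 was the highest of its group for 28 genes (27.8%) and replicate 3 the lowest for 25 (26.2%). The median within-group SD of log2(RPKM + 1) over the 37 genes was 0.159 in ABX 5-FU and 0.0856 in ABX, against 0.0896 and 0.111 over all tested genes. Ifit3 had a wide spread, with 2.48, 0.493 and 1.41 RPKM in ABX and 4.00, 1.45 and 0.667 RPKM in Ctrl 5-FU. Its longest transcript shares 51.2% of its 50-base runs with Ifit3b, and that of Oas1a shares 57.6% with Oas1g, so their values are uncertain.

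Upstream of the list, the receptor genes rose after 5-FU in both backgrounds. Of 9 receptor and kinase genes 7 were tested, of which 5 rose without ABX and 7 with ABX, against 9.74% and 13.7% of all tested genes, and none fell. Ifngr1 and Ifngr2, the receptor chains for interferon gamma, rose by 0.75 and 0.73 with ABX. Ifnar1 was at 4.43, 4.99 and 4.57 RPKM in Ctrl, 3.59, 4.17 and 4.53 RPKM in ABX, 6.29, 6.45 and 7.27 RPKM in Ctrl 5-FU and 5.81, 7.10 and 6.28 RPKM in ABX 5-FU. It rose by 0.44 without ABX (adjusted p of 0.00871) and by 0.54 with ABX (adjusted p of 0.00192). Ifnar2 was at 2.53 to 3.43 RPKM without 5-FU and 3.88 to 4.57 RPKM after it, and rose by 0.32 (adjusted p of 0.0186) and 0.37 (adjusted p of 0.00641). Irf1 (14.2 to 28.9 RPKM) was not called in any comparison, whereas Stat3, which serves cytokine receptors more broadly, rose by 0.64 without ABX (adjusted p of 0.00243) and 0.67 with ABX (adjusted p of 0.0011).

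Beyond the 42 genes, 35 of 51 further interferon-induced genes were tested. After 5-FU with ABX 10 of these 35 rose and 3 fell, where 13.7% of all tested genes rose and 16.5% fell. Without ABX 6 rose and 4 fell, where 9.74% of all tested genes rose and 11.8% fell. In both directions together, 37.1% of the 35 were called with ABX and 28.6% without, against 30.2% and 21.6% of all tested genes. With ABX, Samhd1, a nucleotide hydrolase, rose by 0.60, Plscr1, a phospholipid scramblase, by 0.50, while Psmb8, an immunoproteasome subunit, and Pml, the scaffold of nuclear bodies, fell by 0.42 and 0.34 on the log2 scale. For ABX against Ctrl none was called, 13 had an unadjusted p under 0.05 (17.8% of all tested genes), and the median was -0.14 with 26 of 35 genes below 0. Of 11 sensing and adaptor genes tested, 3 rose with ABX and 4 without, against 13.7% and 9.74% of all tested genes. Myd88, the adaptor of Toll-like receptors, rose by 0.68 with ABX and 0.50 without, and Tmem173, which encodes STING, by 0.57 and 0.41. Of 15 negative regulators tested, 3 rose with ABX and 2 without, which is near those shares. Socs3, a feedback inhibitor of JAK signalling, rose by 3.36 with ABX and 2.87 without. Tlr4, the receptor for bacterial lipopolysaccharide, stayed at 0.276 to 0.45 RPKM and was not tested.

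Levels of markers of other cells also differed between the groups. Summed neutrophil and monocyte markers were 13.7 to 25.5 RPKM in Ctrl, 11.2 to 20.8 in ABX, 37.9 to 267 in Ctrl 5-FU and 14.0 to 37.9 in ABX 5-FU. Summed erythroid markers were 150 to 416, 165 to 176, 201 to 306 and 246 to 583 RPKM in the same order. Car2 alone gave 115 to 123, 118 to 133, 61.2 to 82.2 and 80.9 to 96.7 RPKM of these sums. Hbb-bt, a globin gene, was at 11.3 to 53.6, 25.2 to 40.8, 99.3 to 121 and 120 to 159 RPKM. Of the 6 tested erythroid genes, 5 had a log2 change above 0 after 5-FU and 1 below, in both backgrounds. Megakaryocyte markers summed to 53.8 to 142, 82.4 to 86.7, 91.8 to 386 and 98.0 to 120 RPKM, T and NK cell markers to 24.9 to 39.4, 24 to 27.9, 38.8 to 54.9 and 31.8 to 37.6 RPKM, macrophage markers to 8.28 to 23.2, 10.4 to 34.6, 13.2 to 29.1 and 25.7 to 31.0 RPKM, and stromal and endothelial markers to 1.03 to 6.0, 1.01 to 1.7, 1.69 to 15.2 and 1.79 to 29.0 RPKM. Klf1, an erythroid factor, was at 2.39 to 3.23 RPKM in Ctrl and 0.376 to 0.889 RPKM in ABX, and Csf3r, a myeloid receptor, at 4.92 to 6.24 and 2.6 to 3.77 RPKM. Neither was called (adjusted p of 0.0846 and 0.123), but like 19 genes of the list both had all ABX libraries below all Ctrl libraries. Each was the only tested gene of its marker list with that order. This was 1 of 6 erythroid and 1 of 5 neutrophil and monocyte genes, against 9.06% of all tested genes. The log2 change was above 0 for 2 of those 6 and 1 of those 5 genes. The part of these markers in the results of the list was not tested. Plasmacytoid dendritic cell markers summed to 0.239 to 0.333, 0.331 to 0.422, 0.689 to 0.82 and 0.87 to 0.963 RPKM, near 0 in every group. After 5-FU without ABX, 3 genes of the list were called higher and 2 lower without Ctrl 5-FU replicate 1, and 2 higher and 1 lower without Ctrl 5-FU replicate 3.

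Among the genes of the list, the share with the element is given by call. It was in 4 of 12 genes called higher after 5-FU with ABX that had a promoter entry (33.3%) and in 9 of 17 tested genes not called (52.9%). It was in 6 of 15 genes whose ABX libraries lay below Ctrl and in 7 of 14 other tested genes. Rsad2, Stat2 and Oas3, whose stretches are printed above, were among the genes called, whereas Isg15, Bst2 and Ifit1 hold the element and were not called in any comparison.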

How the data were processed

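RPKM values of 46986 features in 12 libraries were used as the authors deposited them. Per the submitters' processing notes, STAR 2.5.3a, Partek and the mm10 build were used; how reads were counted, with which strand setting and annotation, is not stated there. Libraries were made with SMART-Seq v4 and Nextera XT, per the labels' protocols. The value 0.0001 stands in place of 0. Depth is not stated and was estimated from steps between low values; 50.6% to 55.9% of these lay within 2% of whole reads, too few for a count test.

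With R 4.3.3 and limma 3.58.1, log2(RPKM + 1) was fitted for 8553 genes that reached 1 RPKM in 3 or more libraries, with 4 group means, 8 residual degrees of freedom and an intensity trend. Tests were two-sided with Benjamini-Hochberg adjustment over all genes, called at 0.05. The log2(RPKM + 1) scale understates changes of low genes. An exact permutation test of 3 against 3 cannot go below 0.1 and was not run. The fit was tested on simulated data. The members, lists and tests were chosen with earlier results of these data known. Values per library are given for genes called in any comparison, the 4 with the smallest p in each comparison, and Stat2, Irf9, Irf7, Usp18, Isg15 and the most abundant gene; Ifit3 was named after its values were seen. Promoters are from RefSeq; sharing between copies was read from GENCODE M21 transcripts in place of protein identity. Alternatives were another pseudocount, other filters, rescaling, no trend, the compared groups alone, the i7 index as a block, and leaving out each library. Some genes of the lists are not reported here.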

Additional observations from a re-analysis of the deposited data

How the results depend on the processing

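Across 276 alternative values of the counts and medians, 262 stayed within 1.5 times or the spread between libraries and 14 moved. The 262 include medians that could not change, because the library left out was outside the comparison. They also include counts that stayed at 0, so their number overstates stability. Genes called higher after 5-FU without ABX, 4 with all libraries, numbered 2 with no filter, 1 with a filter of 5 RPKM, 11 after rescaling, 2 with only the groups compared, and 2 to 5 when 1 library was left out, with 2 without Ctrl replicate 3 or Ctrl 5-FU replicate 3. Genes called lower there numbered 1 to 2 when 1 library was left out, with 2 without Ctrl replicate 3 or Ctrl 5-FU replicate 1. The median there, 0.035 with all libraries, was 0.19 after rescaling, -0.01 with a filter of 5 RPKM and -7.3e-05 (without Ctrl 5-FU replicate 1) to 0.10 when 1 library was left out, so its sign is not settled. Genes called higher with ABX, 15 with all libraries, numbered 6 with a filter of 5 RPKM (19 genes of the list tested), 23 after rescaling, and 11 to 17 when 1 library was left out. One gene was called lower with ABX without Ctrl replicate 2 (0 to 1). The median with ABX was 0.47 after rescaling and 0.24 to 0.39 when 1 library was left out. No gene was called for ABX against Ctrl, with or without 5-FU, in any of 19 alternatives. Of 20 called results of single genes, 14 kept their call under every alternative in which the gene was tested (genes of low level are not in the fit with the 5 RPKM filter) and 6 lost it under at least 1 (Ifi44, Oasl2, Rtp4 and Trim25 with ABX, Oas3 and Trim25 without). None reversed. No paired analysis by replicate was possible because the labels give no replicate numbers to pair by. The i7 index, which 1 ABX and 1 Ctrl library share, was entered as a technical block instead, and 20 genes then had an unadjusted p under 0.05 for ABX against Ctrl, with 0 called. Genes of a few RPKM carry counting error that RPKM values do not show.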
